A study of Anser cygnoides with 12 samples.

Results

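Heat shock proteins and their cochaperones were described in ileum, the part of the gut just before the caeca, from domestic geese of the Yangzhou breed on 3 diets. The genes were taken by name from a set of 32 that covers the heat shock factors, HSP90, HSP70, HSP110, HSP60 and HSP10, HSP40, a small heat shock protein, the cochaperones of HSP70 and HSP90, and the collagen chaperone SERPINH1. Of these, 28 were found among the gene names of the 19836 genes in the deposited table, and all 28 passed the filter on low counts. CACYBP, HSF3, HSPE1 and STIP1 were not found by name.

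Chaperones bind unfolded or partly folded proteins and keep them from aggregating. HSP70 takes up substrates that HSP40 proteins hand over, HSP110 and BAG proteins release its nucleotide, and HSP90 completes the folding of many kinases and steroid receptors with its own cochaperones. Heat shock factors are the transcription factors that raise many of these genes when proteins unfold, and some family members are made at high levels in unstressed cells. In the intestine, they are studied for the protection of the epithelium against heat, toxins and inflammation.

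Lactulose geese received a diet with 21% crude protein and 0.3% lactulose, a synthetic disaccharide that gut bacteria ferment. High protein geese received the 21% protein diet without lactulose, and control geese a basal diet with 18% crude protein. Poly(A) RNA of the ileum was sequenced in 4 libraries per diet, named here by diet and by the replicate number of the labels: lactulose 2, 3, 5 and 6, high protein 1, 3, 4 and 5, and control 3, 4, 6 and 7. Values are given in that order. The labels give neither age nor sex, and do not say whether replicates are separate birds, so that p-values measure only the spread between these samples.

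Total counts were 38706155 to 48251825 per library, and the 28 genes held 0.302 to 0.560% of them. All 9 ileum position markers were found, among them SLC10A2, the bile acid transporter of the ileum, at 6.84 to 146 FPKM, and CDX2, an intestinal transcription factor, at 59.6 to 132 FPKM. FPKM, the authors' level per transcript length and library size, is used here to compare genes with each other. Between libraries, CPM scaled by the trimmed mean of M-values (TMM; here scaled CPM) is used, as in the tests, because the composition of the libraries differed. The TMM factor was 0.806 in control 3 and 0.912 to 1.15 in the others, so that FPKM reads low in control 3: it was the lowest of 12 libraries for 20 of the 28 genes and for 40.5% of all 16075 tested genes on that scale. On scaled CPM it was the lowest for 9 of the 28 genes and for 22.3% of all tested genes. It was also the highest there for 4 of the 28 genes and for 23.8% of all tested genes. Control 3 also correlated least with the other libraries (median r = 0.932 of log2 CPM, against 0.950 to 0.956). Lactulose 3 and 5 were the most alike of all pairs (r = 0.977, against at most 0.967 for any other library's best partner), and both were kept as separate libraries.

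The levels of these genes differed widely. HSPA8, the constitutive HSP70 of the cytosol, was the most abundant, with a mean of 281 FPKM (211 to 362) over the 12 libraries. HSP90AA1, named in mammals as the inducible HSP90 of the cytosol, followed at 241 FPKM (124 to 401). HSPB1, a small heat shock protein that binds actin filaments and unfolded proteins, stood at 114 FPKM (62.1 to 242). At the other end were CHORDC1, an HSP90 cochaperone, at 5.92 FPKM (3.46 to 7.35), and the heat shock factors HSF1 and HSF2, at 10.8 and 10.5 FPKM. On FPKM, SERPINH1, the chaperone of collagen in the endoplasmic reticulum, had the widest spread, with 20.1 to 113 FPKM, a 5.63-fold range. DNAJA2, an HSP40, had the narrowest on that scale, with 44.5 to 57.8 FPKM, a 1.30-fold range. On scaled CPM, SERPINH1 spanned 97.96 to 369 and DNAJA2 97.9 to 147. HSPA4 had a narrower range there than DNAJA2, at 114 to 132 scaled CPM.

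**Figure D1:**
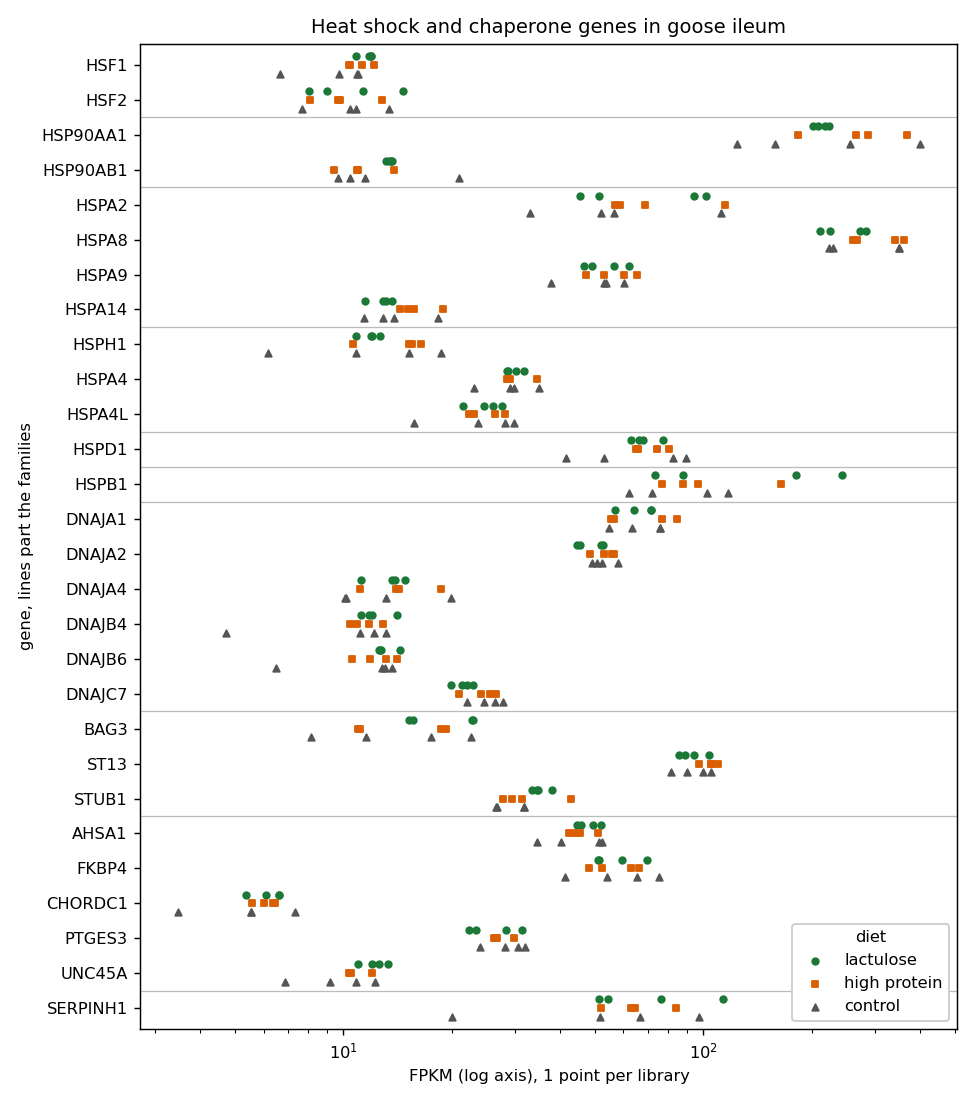
FPKM of the 28 genes on a log axis, with 1 point per library and lines between families (circles lactulose, squares high protein, triangles control). HSPA8 and HSP90AA1 stand highest, with means of 281 and 241 FPKM, CHORDC1 stands lowest at 5.92 FPKM, and the 3 diets overlap for almost every gene.

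Among the heat shock factors, HSF1 is the main activator of the heat shock genes, and HSF2 binds the same sites in development and under some stresses. HSF1 had 24.8, 26.1, 29.1 and 26.8 scaled CPM in lactulose libraries, 30.2, 24.99, 27.4 and 25.6 in high protein libraries and 20.7, 25.7, 20.96 and 25.7 in control libraries. Its lowest libraries were control 3 and 6, and the diets overlapped. HSF2 had 38.9, 27.6, 25.03 and 32.7 scaled CPM in lactulose libraries, 30.6, 36.2, 27.1 and 30.7 in high protein libraries and 30.4, 32.4, 36.7 and 31.4 in control libraries. It was highest in lactulose 2 and control 6 and lowest in lactulose 5, so that the spread within the lactulose diet covered the other diets. HSF3, a factor known from chicken, was not found by name, but the deposited table describes LOC106045553 as heat shock factor protein 3, with 11.6 to 20.7 FPKM.

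Of the HSP90 family, HSP90AA1 (ID 106046988, NW_025927711.1, 2867753 to 2875400) had 649.6, 701, 741 and 636 scaled CPM in lactulose libraries, 633, 822, 1050.2 and 1259 in high protein libraries and 538, 516, 1202 and 841 in control libraries. The lactulose libraries lay close together, while high protein 5 and control 6 stood highest and control 3 and 4 lowest. HSP90AB1, the paralog that mammalian cells make constitutively, had 35.9, 42.9, 42.9 and 40.5 scaled CPM in lactulose libraries, 35.4, 27.2, 37.97 and 44.5 in high protein libraries and 39.4, 32.04, 59.02 and 35.6 in control libraries. Control 6 stood above all other libraries. In FPKM HSP90AB1 was far below HSP90AA1 in every library, although how reads shared by close paralogs were counted is not given. The cochaperones of HSP90 covered a range of levels, with FKBP4, a prolyl isomerase of steroid receptor complexes, at 41.4 to 75.1 FPKM, AHSA1, which activates the HSP90 ATPase, at 34.5 to 52.4 FPKM, and PTGES3, the p23 cochaperone, at 22.4 to 31.9 FPKM. UNC45A, a chaperone of myosin that works with HSP90, stood at 6.91 to 13.3 FPKM.

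Of the HSP70 family, HSPA8 had 512, 762, 807 and 595 scaled CPM in lactulose libraries, 751, 687, 1107 and 975 in high protein libraries and 831, 609, 876 and 961 in control libraries. It was lowest in lactulose 2 and 6 and highest in high protein 4, and the diets overlapped. HSPA2, which in mouse is best known from male germ cells, was clearly present in goose ileum, with 236, 138, 124 and 239 scaled CPM in lactulose libraries, 162, 170.2, 166 and 314 in high protein libraries and 114, 136, 269 and 149 in control libraries. Within each diet HSPA2 had 1 or 2 libraries well above the rest: lactulose 2 and 6, high protein 5 and control 6. HSPA9, the HSP70 of mitochondria, stood at 37.7 to 65.5 FPKM, and HSPA14, an HSP70 bound to ribosomes in mammals, at 11.4 to 18.9 FPKM.

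The HSP110 proteins are nucleotide exchange factors of HSP70. HSPH1, which is strongly induced by heat in mammals, had 39.6, 39.4, 44.2 and 40.9 scaled CPM in lactulose libraries, 39.8, 51.8, 60.2 and 60.8 in high protein libraries and 28.8, 38.3, 60.7 and 54.03 in control libraries. The lactulose libraries spanned 39.4 to 44.2 scaled CPM, a narrower range than either other diet, and control 3 was lowest. HSPA4 and HSPA4L, its relatives, were more abundant, at 23.1 to 35.1 and 15.7 to 29.8 FPKM. Among regulators of HSP70, BAG3, a nucleotide exchange factor that guides damaged proteins to autophagy, had 51.9, 40.1, 41.6 and 56.4 scaled CPM in lactulose libraries, 30.1, 46.6, 31.6 and 50.2 in high protein libraries and 27.6, 29.6, 53.01 and 45.2 in control libraries. It was highest in lactulose 6 and lowest in control 3, and the diets overlapped. ST13, which links HSP70 to HSP90, and STUB1, a ubiquitin ligase for chaperone clients, stood at 81.4 to 109.6 and 26.6 to 42.97 FPKM.

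The HSP40 genes held DNAJA1 and DNAJA2, general partners of HSP70, and the less abundant DNAJA4, DNAJB4, DNAJB6 and DNAJC7. DNAJA1 had 149.7, 193, 196 and 144 scaled CPM in lactulose libraries, 154, 191, 167 and 232 in high protein libraries and 190.0, 167, 183 and 200.4 in control libraries. High protein 5 stood highest and lactulose 6 lowest. DNAJA4 and DNAJB4 stood at 10.1 to 19.96 and 4.71 to 14.1 FPKM, DNAJB6, which suppresses aggregation of polyglutamine proteins, at 6.52 to 14.3 FPKM, and DNAJC7, which binds HSP70 and HSP90, at 19.96 to 27.8 FPKM. HSPD1, the HSP60 chaperonin of mitochondria, had 172, 175, 173 and 153 scaled CPM in lactulose libraries, 213, 156, 183 and 197 in high protein libraries and 139, 134, 206 and 208 in control libraries. Control 3 and 4 were low and control 6 and 7 high, so that the controls spanned nearly all other values.

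The first comparison asked how the 21% protein diet differed from the basal diet. None of the 28 genes passed the test: edgeR's quasi-likelihood test with Benjamini-Hochberg adjustment called 0 of 28, against 0% of all tested genes, and 0 had an unadjusted p under 0.05, against 3.17% of all. Of the 28 genes, 23 had a positive log2 fold change, against 46.2% of all tested genes, with a median of 0.13, against −0.02 for all. Single fold changes were small, between −0.19 and 0.28 on the log2 scale, and in 0 of 28 genes did the libraries of the diets not overlap in scaled CPM, against 1.87% of all tested genes. In bulk tissue, fewer cells of a type and less RNA per cell cannot be told apart, here and in the other comparisons.

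The gene of smallest p was HSF1, with 30.2, 24.99, 27.4 and 25.6 scaled CPM in high protein libraries, against 20.7, 25.7, 20.96 and 25.7 in control libraries. Its log2 fold change was 0.22 ± 0.13 (SE; unadjusted p = 0.112, adjusted p = 1.0 by edgeR). Next was CHORDC1, with 51.7, 53.2, 59.2 and 58.5 scaled CPM in high protein libraries, against 40.2, 48.5, 59.02 and 48.8 in control libraries, and a log2 fold change of 0.18 ± 0.13. Control 3 was the lowest library for both genes, and high protein and control libraries overlapped. The mitochondrial HSPA9 had 191, 185, 159 and 167 scaled CPM in high protein libraries, against 150.3, 161, 166 and 160.1 in control libraries (0.14 ± 0.11 on the log2 scale). ST13 had 298, 300.2, 342 and 321 scaled CPM in high protein libraries, against 313, 289, 279 and 262 in control libraries (0.14 ± 0.12), with control 3 within the high protein range. The myosin chaperone UNC45A had 41.9, 32.7, 38.6 and 36.05 scaled CPM in high protein libraries, against 30.3, 30.4, 32.9 and 40.6 in control libraries (0.16 ± 0.13), with control 6 and 7 within the high protein range. DNAJB4, an HSP40, had 71.3, 71.9, 79.01 and 87.1 scaled CPM in high protein libraries, against 40.4, 71.7, 77.6 and 79.1 in control libraries (0.20 ± 0.18), with control 3 far below the rest. HSPA14 had 37.9, 44.2, 42.1 and 40.97 scaled CPM in high protein libraries, against 45.5, 31.9, 41.7 and 28.5 in control libraries (0.16 ± 0.15), and control 3 was the highest of all libraries. HSPH1, already given by library, had a log2 fold change of 0.22 ± 0.21, HSP90AA1 one of 0.28 ± 0.28 and HSPA2 one of 0.28 ± 0.32. The diets overlapped in all 3 of these genes. Single libraries moved these values: without control 3 the log2 fold change of DNAJB4 was 0.025, that of HSPH1 0.062, that of CHORDC1 0.097 and that of HSPA14 0.28. Without control 6 HSPH1 stood at 0.41 and CHORDC1 at 0.29. HSPH1 stood at 0.34 without high protein 1 and at 0.15 without control 4. UNC45A stood at 0.094 without high protein 1 and at 0.26 without control 7, and HSPA14 at 0.10 without control 4 and at 0.057 without control 7. Over all 28 genes, 17 were positive without high protein 5 and 18 without control 4, with medians of 0.05 and 0.06. The median was 0.08 without control 3, and with the smooth muscle covariate 20 were positive, with a median of 0.06.

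The question of the second comparison was the effect of lactulose when protein was high. Most of these genes had lower values with lactulose, but none passed the test: edgeR called 0 of 28, against 0% of all tested genes, with a smallest adjusted p of 0.845. Of the 28 genes, 7 had a positive log2 fold change, against 52.8% of all tested genes, with a median of −0.09, against 0.02 for all. With limma on log2(FPKM + 1), a scale that carries the library composition, 13 of 28 were positive. There the median was −0.01, against 0.06 for all tested genes. At an unadjusted p under 0.05 stood 2 of 28, HSPA14 and ST13, against 5.65% of all. In 4 of 28 genes, or 14.3%, the libraries of the diets did not overlap in scaled CPM, against 6.15% of all tested genes, and on FPKM this held for 1 of 28, HSPA14, against 6.50% of all tested genes. These high protein libraries also entered the first comparison, so that the opposite signs of the medians are not independent of each other.

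HSPA14 (ID 106046191, NW_025927685.1, 6781081 to 6796119), the ribosome-bound HSP70, had 28.3, 29.3, 33.9 and 32.7 scaled CPM in lactulose libraries, against 37.9, 44.2, 42.1 and 40.97 in high protein libraries. Every lactulose library lay below every high protein library, and the log2 fold change was −0.41 ± 0.15 (SE; unadjusted p = 0.0183, adjusted p = 0.845 by edgeR). ST13 (ID 106035802, NW_025927711.1, 6046372 to 6063223) had 267, 256, 269.6 and 264 scaled CPM in lactulose libraries, against 298, 300.2, 342 and 321 in high protein libraries, again without overlap, and a log2 fold change of −0.26 ± 0.12 (unadjusted p = 0.0480, adjusted p = 0.845 by edgeR). DNAJA2 had 97.9, 99.6, 98.6 and 108 scaled CPM in lactulose libraries, against 125, 114, 116 and 118 in high protein libraries, with every lactulose library below every high protein library (−0.23 ± 0.12 on the log2 scale). The HSP110 gene HSPA4 had 114, 119, 121 and 118 scaled CPM in lactulose libraries, against 122, 132, 130.2 and 124 in high protein libraries, a small difference without overlap (−0.11 ± 0.09 on the log2 scale). HSPA4 is named for its lack of overlap, after its values were seen.

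HSPA8 had a log2 fold change of −0.40 ± 0.22, HSPH1 one of −0.37 ± 0.21 and HSP90AA1 one of −0.46 ± 0.28, the lowest of the 28. Without high protein 5, HSP90AA1 stood at −0.29, less negative than HSPA14 (−0.41) and HSPA8 (−0.34). In all 3 genes high protein 4 and 5 stood above the lactulose libraries, while high protein 1 lay within or just below them. DNAJC7 had 38.5, 41.6, 43.6 and 36.5 scaled CPM in lactulose libraries, against 48.2, 37.3, 56.4 and 50.7 in high protein libraries (−0.27 ± 0.15), with high protein 3 within the lactulose range. HSPA9 had 165, 151, 146 and 164 scaled CPM in lactulose libraries, against 191, 185, 159 and 167 in high protein libraries (−0.16 ± 0.11), with high protein 4 below lactulose 2 and 6. The 2 highest positive values were HSPB1, at 0.34 ± 0.34, and BAG3, at 0.26 ± 0.24. The median of the 28 was −0.05 without high protein 5, and the count at an unadjusted p under 0.05 was 0 without lactulose 2 and 4 without control 3. The shares of all tested genes in those 2 fits were 5.58% and 10.8%. The 10 immediate early genes found of 12, which cells raise within minutes of handling or stress, were summed. They stood at 286 to 452 FPKM with lactulose, 199 to 207 FPKM with high protein and 222 to 295 FPKM in controls. The 11 macrophage and dendritic cell markers summed to 359 to 465, 488 to 610 and 380 to 466 FPKM in the same order. Among the marker lists, only these did not overlap between lactulose and high protein. The sums are in FPKM, which carries the library composition. Cytosolic ribosomal protein genes overlapped little, at 15166 to 28350 FPKM with lactulose and 27489 to 43600 FPKM with high protein. The part of these lists in the differences between lactulose and high protein was not tested.

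The third comparison set the lactulose diet against the basal diet, which differ in protein and in lactulose. No heat shock gene passed the test: edgeR called 0 of 28, against 0% of all tested genes, with a smallest adjusted p of 0.771. DNAJC7 alone had an unadjusted p under 0.05, 1 of 28, against 6.2% of all tested genes. Positive log2 fold changes were found for 11 of 28, against 50.1% of all, with a median of −0.03, and for 20 of 28 with limma on log2(FPKM + 1), where the median of the 28 was 0.07 and that of all genes 0.06. With a pseudocount of 0.1, limma moved the median of all genes to 0.10. In 0 of 28 genes did the libraries not overlap in scaled CPM, against 3.72% of all, while on FPKM 1 of 28, STUB1, did not overlap, against 3.21% of all tested genes.

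DNAJC7 (ID 106048015, NW_025927970.1, 135246 to 149191) had 38.5, 41.6, 43.6 and 36.5 scaled CPM in lactulose libraries, against 61.8, 41.7, 48.2 and 50.2 in control libraries. Control 4 lay within the lactulose range, and the log2 fold change was −0.33 ± 0.15 (SE; unadjusted p = 0.0461, adjusted p = 0.771 by edgeR). DNAJA2 had 97.9, 99.6, 98.6 and 108 scaled CPM in lactulose libraries, against 147, 108, 113 and 105 in control libraries (−0.22 ± 0.12 on the log2 scale), with control 3 far above the rest. HSPB1 had 163, 91.6, 77.7 and 238 scaled CPM in lactulose libraries, against 83.6, 104, 109 and 73.5 in control libraries, with lactulose 2 and 6 high and lactulose 3 and 5 at the level of controls, and a log2 fold change of 0.62 ± 0.34, the highest of the 28 in size. UNC45A had 39.1, 42.7, 41.4 and 35.02 scaled CPM in lactulose libraries, against 30.3, 30.4, 32.9 and 40.6 in control libraries (0.24 ± 0.13). HSPA14 (−0.25 ± 0.15), PTGES3 (−0.26 ± 0.17) and HSPA8 (−0.29 ± 0.22) were at the lower end, and PTGES3 had 136, 113, 119.5 and 134 scaled CPM in lactulose libraries, against 207, 118, 138 and 139 in control libraries, with control 3 above all other libraries. HSF1 had a log2 fold change of 0.20 ± 0.13. Without control 3, PTGES3 stood at −0.068, DNAJA2 at −0.11 and HSPA14 at −0.13. HSPB1 stood at 0.26 without lactulose 6, and HSPA8 at −0.18 without lactulose 2. The median of the 28 turned to 0.06 without control 6, and was −0.08 without control 4 and −0.07 without control 3.

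**Figure D2:**
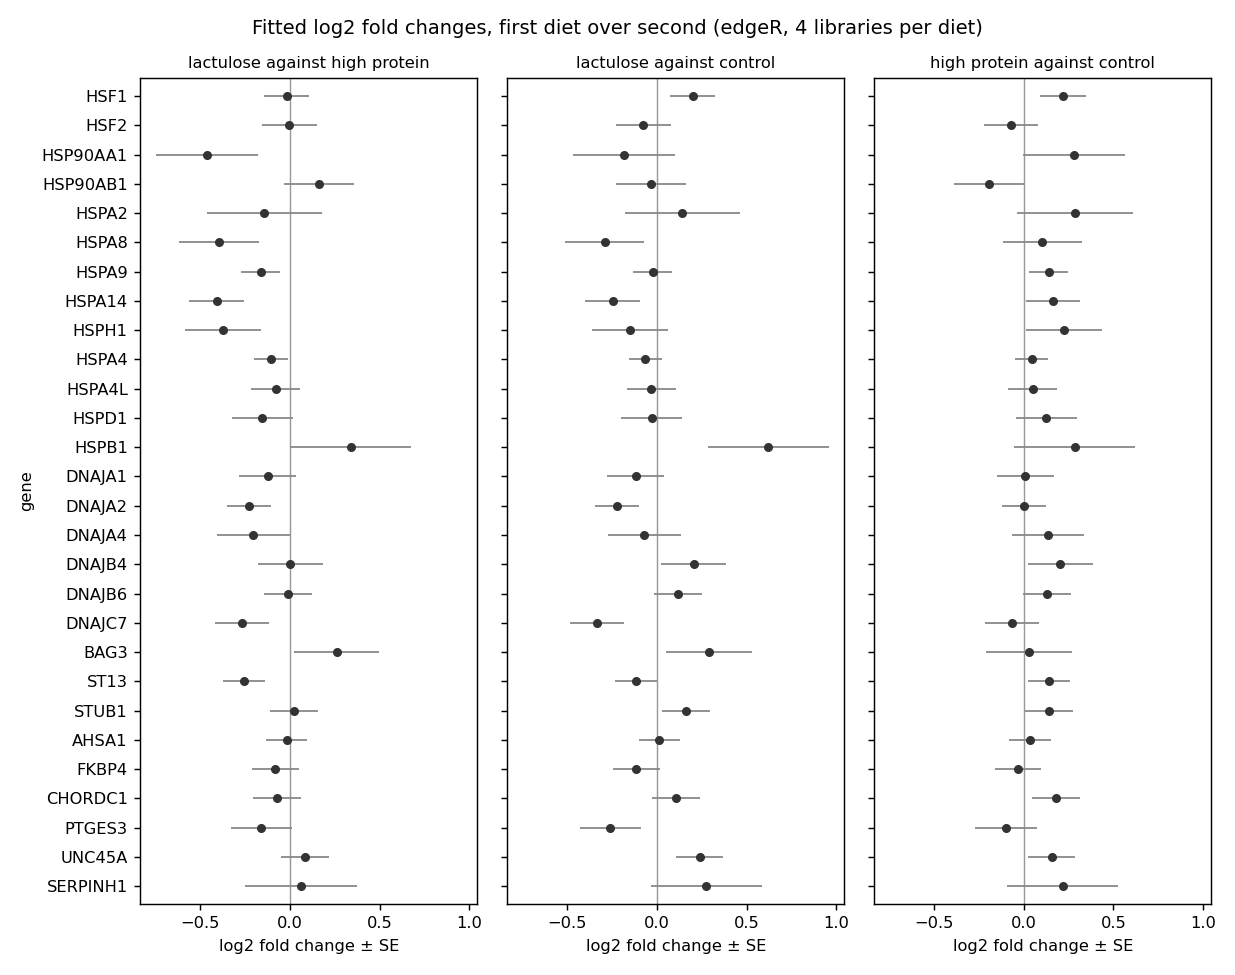
Log2 fold change ± SE of each gene by edgeR for lactulose against high protein, lactulose against control and high protein against control, the first diet over the second. In lactulose against high protein 7 of 28 points lie right of 0, in lactulose against control 11, and in high protein against control 23, and the SE bars are wide relative to the distances.

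The balance between family members within a library does not depend on the scaling. The ratio of HSP90AA1 to HSP90AB1 in FPKM was 17.1, 15.4, 16.2 and 14.8 in lactulose libraries, 16.8, 28.4, 26.0 and 26.6 in high protein libraries and 12.9, 15.2, 19.2 and 22.3 in control libraries. High protein 3, 4 and 5 stood above all other libraries. The mean log2 ratio was 3.99 ± 0.0904 with lactulose and 4.58 ± 0.345 with high protein (SD, n = 4 each), a difference of −0.60 with an exact two-sided permutation p of 0.0571 (adjusted p = 0.257 over the 6 ratio tests). Between high protein and control it was 0.50 (exact permutation p = 0.0857) and between lactulose and control −0.10 (exact permutation p = 0.6). The smallest p that 4 against 4 libraries can give is 0.0286. Leaving out each lactulose or high protein library in turn, the difference between these diets lay between −0.77 (without high protein 1, the library within the lactulose range; exact permutation p = 0.0286, also the smallest that 4 against 3 can give) and −0.52, with exact permutation p of 0.0571 to 0.0857 without any of the other 7. The ratio of HSPA2 to HSPA8 was 0.481, 0.189, 0.160 and 0.419 in lactulose libraries, 0.225, 0.259, 0.157 and 0.337 in high protein libraries and 0.143, 0.233, 0.320 and 0.162 in control libraries. Its diets overlapped, and all 3 adjusted p were 0.6.

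**Figure D3:**
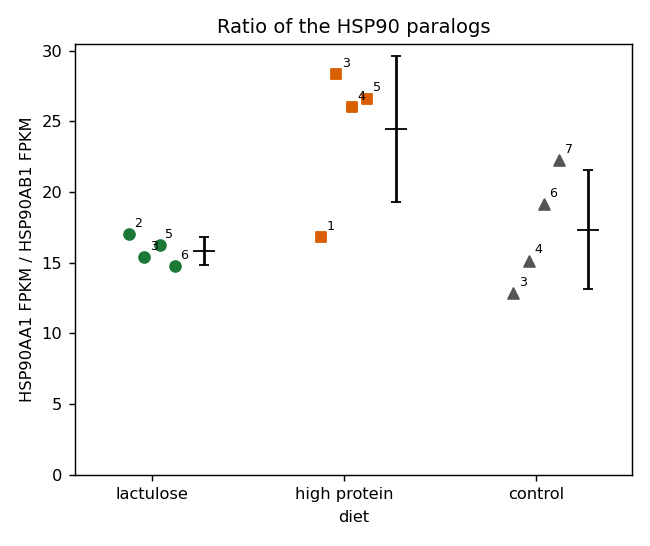
Ratio of HSP90AA1 to HSP90AB1 FPKM in each library by diet, with the replicate number beside each point and the mean and SD to the right. Lactulose libraries lie between 14.8 and 17.1, and high protein 3, 4 and 5 at 26.0 to 28.4.

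HSPH1 served as an anchor to compare members across libraries, because heat induces it. Over the 12 libraries HSP90AA1 followed HSPH1 closely on log2 CPM (Pearson r = 0.93, Spearman rho = 0.93; permutation adjusted p = 0.00054 and 0.00081 over the 27 genes). Without the libraries farthest from the HSPH1 median, control 3 and high protein 5, r was 0.94 over 10 libraries. After centring within diet it was 0.91, where HSP90AA1 ranked 7 among 16074 tested genes. HSP90AA1 was the 1 of 27 genes past the threshold. Positive r was found for 24 of 27, against 48.9% of all tested genes, and after centring within diet for 19 of 27, against 49.3%, with 8 negative. CHORDC1 (0.72), FKBP4 (0.71), DNAJB4 (0.71) and HSPA4L (0.68) came next, and their permutation adjusted p were 0.0684, 0.0684, 0.0676 and 0.0937. Without control 3 and high protein 5, the r of CHORDC1 was 0.45, that of FKBP4 0.72, that of DNAJB4 0.31 and that of HSPA4L 0.50. HSF1 and HSF2, the regulators, had r of 0.088 and 0.057 with HSPH1. STUB1 (−0.18), PTGES3 (−0.21) and DNAJA2 (−0.24) had negative r, which turned to 0.060, 0.61 and 0.31 without those libraries. Log2 FPKM gave 15 of 27 past the threshold. Control 3 reads low on that scale, and its part in this count was not tested.

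**Figure D4:**
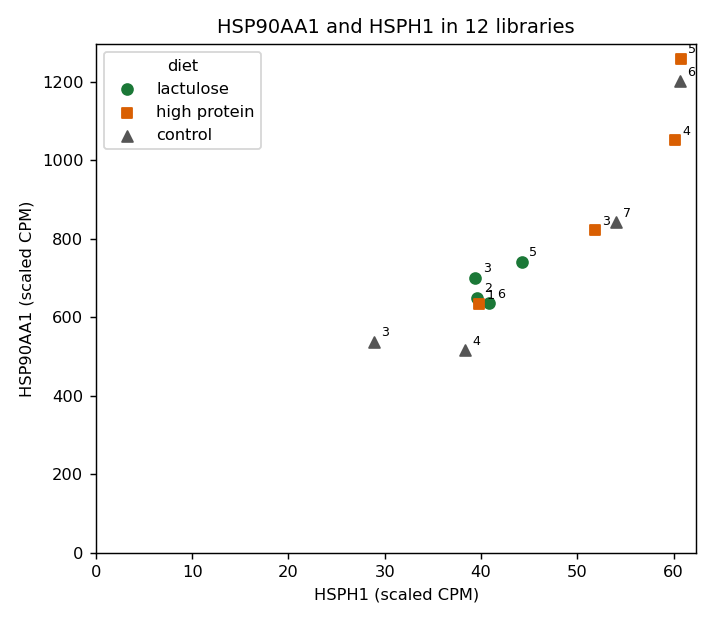
HSP90AA1 against HSPH1 in scaled CPM, with 1 point per library and its replicate number. High protein 4 and 5 and control 6 stand highest on both axes, and control 3 and 4 stand lowest for HSPH1.

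Among all tested genes that are not members, those most like HSPH1 after centring within diet were RAD54L (r = 0.92), LOC106036001 (0.91), TTC3 (0.91), SLC38A2 (0.91), HPS5 (0.91) and SLC6A9 (0.91). LOC125181532 (0.90), LOC125181878 (0.90), CCDC117 (0.89) and LOC125182102 (0.89) followed. These are the 10 highest among genes outside the list, over 12 libraries that share their scaling. DNAJB4 ranked 44 and FKBP4 118 in the same order, while DNAJA2 ranked 15670.

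Some members differed between libraries together with smooth muscle markers. The 9 smooth muscle markers found of 10 summed to 2499 to 7057 FPKM in lactulose libraries, 2961 to 5345.5 FPKM in high protein libraries and 2287 to 4595 FPKM in control libraries. They were highest in lactulose 2 and 6, high protein 5 and control 6, at 7057, 5509, 5345.5 and 4595 FPKM, while none of the other 8 passed 3368 FPKM. In those same 4 libraries HSPA2 stood at 102, 94.5, 115 and 112 FPKM, above the 33.0 to 69.1 FPKM of the other 8. HSPB1 stood at 181, 242, 165 and 117 FPKM there, above the 62.1 to 103 FPKM elsewhere. On scaled CPM HSPA2 had 236, 239, 314 and 269 in these 4, against 114 to 170.2 elsewhere. HSPB1 had 163, 238, 175 and 109 scaled CPM, against 73.5 to 104 elsewhere, so that control 6 stood just above control 4. BAG3 had 51.9, 56.4, 50.2 and 53.01 scaled CPM in these 4, against at most 46.6 elsewhere. On FPKM, BAG3 was higher in high protein 3 (19.3) than in high protein 5 (18.7). The split was taken from these same data. How many of all tested genes part these libraries in the same way was not counted. As covariates, the smooth muscle and enterocyte levels were the mean log2 scaled CPM of the markers, not the summed FPKM. With the smooth muscle level as a covariate, the log2 fold change of HSPB1 between lactulose and control was −0.038 ± 0.26 (adjusted p = 0.983 by edgeR), and that of HSPA2 was −0.42 ± 0.13 (unadjusted p = 0.00846, adjusted p = 0.458 by edgeR), against 0.14 ± 0.32 without it. Between high protein and control, HSPA2 turned to −0.18 ± 0.13 with this covariate, HSPB1 to −0.24 ± 0.25, and HSP90AA1 stood at 0.10 ± 0.28. With the enterocyte level as a covariate, HSPB1 stood at 0.57 ± 0.30 for lactulose against control and at 0.33 ± 0.30 for high protein against control. The summed enterocyte markers were 934 to 5629 FPKM with lactulose, 1149 to 5034.5 FPKM with high protein and 1141 to 4519.5 FPKM in controls.

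**Figure D5:**
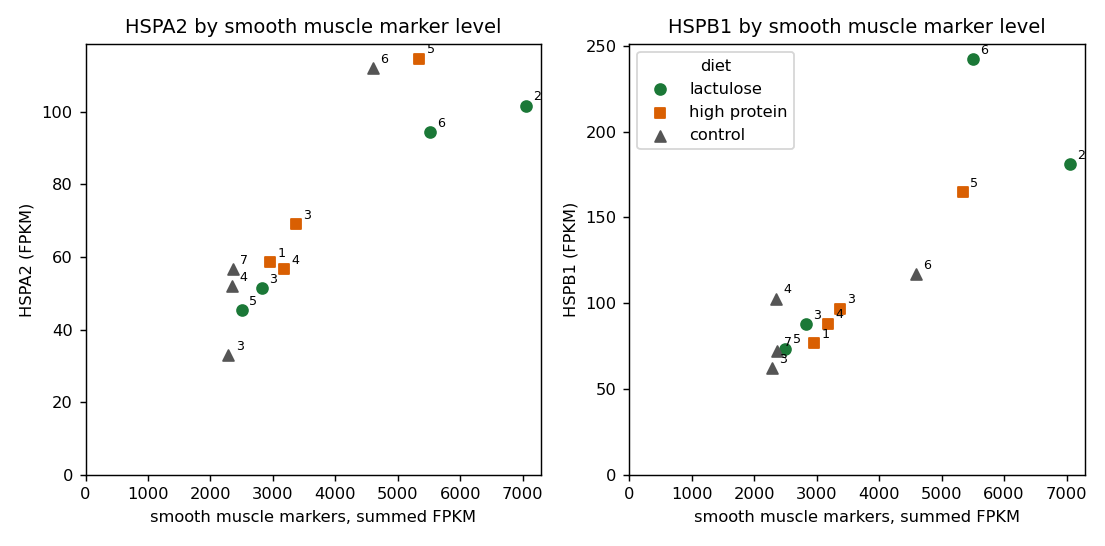
HSPA2 and HSPB1 in FPKM against the summed FPKM of smooth muscle markers, with 1 point per library and its replicate number. Lactulose 2 and 6, high protein 5 and control 6 stand farthest right and above the other 8 libraries in both panels.

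SERPINH1 (ID 106042407, NW_025927846.1, 297892 to 302064) had 369, 206, 197 and 272 scaled CPM in lactulose libraries, 245, 292, 214 and 250.2 in high protein libraries and 97.96, 189.6, 328 and 246 in control libraries. Lactulose 2 and control 6 stood highest and control 3 far below the rest, and its log2 fold changes were 0.06 ± 0.31 for lactulose against high protein, 0.28 ± 0.31 against control and 0.22 ± 0.31 for high protein against control. With the smooth muscle level as a covariate all 3 turned, to −0.064 ± 0.23, −0.13 ± 0.26 and −0.068 ± 0.24 in the same order. The 8 endothelial markers summed to 52.7 to 78.1 FPKM with lactulose, 47.5 to 98.7 FPKM with high protein and 34.5 to 86.5 FPKM in controls, lowest in control 3. Their part in the spread of SERPINH1 was not tested.

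Libraries also differed in transcripts of LOC125181434, described as BTF3 and placed on the W chromosome, which female birds carry, by RefSeq's table for the Taihu_goose_T2T_genome assembly. It stood at 63.3 to 96.2 FPKM in lactulose 2 and 6, high protein 1 and 4 and control 6 and 7, and at 0.171 to 9.90 FPKM in the other 6, so that each diet held 2 of each kind. Lactulose 3, at 9.90 FPKM, stood above the rest of the low libraries, which reached at most 1.501 FPKM, and its class is uncertain. Between these libraries, edgeR called 0 of the 28 genes, against 1.51% of all tested genes. The smallest p was that of SERPINH1, with a log2 fold change of 0.48 ± 0.23, followed by DNAJA1 at −0.23 ± 0.12 (adjusted p = 0.794 and 0.831 by edgeR).

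Other genes of protein folding did not pass the test either. Of 27 tested other cytosolic heat shock genes, 0 were called in each comparison. The share called of all tested genes was 0% as well, here and for the lists that follow. Log2 fold changes were positive in 15, 14 and 16 of 27 for lactulose against high protein, lactulose against control and high protein against control. Beside them, 52.8, 50.1 and 46.2% of all tested genes were positive, and the medians of the 27 were 0.006, 0.009 and 0.05. FKBP5, an HSP90 cochaperone induced by glucocorticoids, stood at 6.42 ± 0.468 FPKM with lactulose and 3.38 ± 1.15 FPKM in controls (SD, n = 4 each), a log2 fold change of 0.87 ± 0.21 (unadjusted p = 0.00116, adjusted p = 0.771 by edgeR). It stood at 5.04 ± 1.53 FPKM with high protein, with a log2 fold change of 0.59 ± 0.21 against control. The HSP40 DNAJB5 had a log2 fold change of 0.62 ± 0.23 for lactulose against control, DNAJC2 one of −0.29 ± 0.12 for lactulose against high protein, and HSPB7, a small heat shock protein of muscle, 0.47 ± 0.23 for lactulose against high protein but −0.52 ± 0.23 for high protein against control.

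The TRiC chaperonin folds actin and tubulin, and prefoldin delivers them. Of 15 tested genes of this list, 0 were called, and 0 had a positive log2 fold change in lactulose against high protein (median −0.14), with 2 of 15 positive in lactulose against control (median −0.17) and 7 of 15 in high protein against control (median −0.03). The medians of all tested genes were 0.02, 0.00 and −0.02, and 52.8, 50.1 and 46.2% of them were positive. The signs of this list are those of the main edgeR fit. PDCL3, a cochaperone of TRiC, stood at −0.41 ± 0.14 and −0.32 ± 0.14 on the log2 scale for lactulose against high protein and against control, PDCD5 at −0.37 ± 0.16 for lactulose against high protein, and the prefoldin subunit PFDN4 at −0.65 ± 0.26 for lactulose against control and −0.25 ± 0.26 for high protein against control. CCT2, a TRiC subunit, stood at −0.09 ± 0.10 for high protein against control.

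Of 29 chaperones and response genes of the endoplasmic reticulum, 0 were called, with 11, 13 and 18 positive for lactulose against high protein, lactulose against control and high protein against control. The positive shares of all tested genes were 52.8, 50.1 and 46.2% in that order. ATF6, a sensor of unfolded proteins, had a log2 fold change of 0.42 ± 0.17 for lactulose against control, and SDF2L1 one of −0.42 ± 0.15 there and −0.34 ± 0.15 for lactulose against high protein. ERO1B, an oxidase for disulfide bonds, stood at −0.26 ± 0.13 for lactulose against high protein, and ERP29 and the stress factor DDIT3 at 0.26 ± 0.13 and −0.33 ± 0.28 for high protein against control. Of 16 mitochondrial chaperones and proteases, 0 were called, with 2, 6 and 11 positive in the same order of comparisons, beside the same shares of all. GRPEL1, the nucleotide exchange factor of HSPA9, stood at −0.33 ± 0.17 with lactulose against high protein and at −0.38 ± 0.17 against control, DNAJC19 at −0.63 ± 0.30 for lactulose against high protein and HSCB at −0.30 ± 0.16 for lactulose against control. CLPB and SPG7 stood at 0.21 ± 0.11 and 0.20 ± 0.11 for high protein against control.

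Of 15 tested proteotoxic stress and ubiquitin genes, 0 were called, with 5, 7 and 10 positive for lactulose against high protein, lactulose against control and high protein against control. The positive shares of all tested genes were again 52.8, 50.1 and 46.2%. TXNRD1, a thioredoxin reductase, had log2 fold changes of −0.39 ± 0.22 for lactulose against control and −0.58 ± 0.22 for high protein against control. The autophagy gene NRBF2 stood at −0.51 ± 0.18 and −0.53 ± 0.18 for lactulose against high protein and against control, the proteasome subunit PSMD12 at −0.34 ± 0.17 for lactulose against high protein, and the autophagy receptor SQSTM1 at 0.28 ± 0.13 for high protein against control.

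For the names that were not found, related entries of the deposited table are given beside the 28 genes. LOC106042471, which carries the symbol CACYBP in RefSeq, stood at 27.8 to 36.4 FPKM, and LOC106039999, described as phocein and 10 kDa heat shock protein, at 23.1 to 38.7 FPKM. LOC106045553, described as heat shock factor protein 3, had log2 fold changes of −0.06 ± 0.13 for lactulose against high protein, 0.20 ± 0.13 for lactulose against control and 0.25 ± 0.13 for high protein against control. DNAJB1, a heat-induced HSP40 found as LOC125181512 through RefSeq, stood at 2.58 to 4.44 FPKM. None of these entries was counted as a member.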

How the data were processed

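Poly(A) RNA of goose ileum was sequenced in 12 libraries with a strand-marking kit, per the labels' protocols. The authors deposited raw counts and FPKM values per gene, per the file headers. The submitters' processing notes name edgeR, DESeq2, StringTie 2.1.6, HISAT2 2.2.1 and cutadapt 1.9, without roles; the genome build is not given in the sources used here, nor is how strand and reads shared by paralogs were counted. Levels of close paralogs are therefore uncertain. Small counts clustered at 4 (5063 times, against 1799 at 3 and 1526 at 5), so 1 count may not be 1 read pair; what it stands for was not tested, and counts divided by 4 were an alternative. Total counts were 38706155 to 48251825 per library, and the 28 genes had counts of at least 806 in each.

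Groups came from the sample titles. The main test was edgeR 4.0.16 (R 4.3.3), quasi-likelihood, TMM, filterByExpr with a minimum count of 10, on all 12 libraries with diet as the only term, two-sided, adjusted over 16075 genes at 0.05. The SE was taken as |log2 fold change| over √F. DESeq2 1.42.0 and limma 3.58.1 on log2(FPKM + 1) and log2(FPKM + 0.1) were alternatives, with filters, covariates, left-out libraries and W transcript status, the last chosen after seeing the data. Ratios were tested by exact permutation of 70 arrangements, and correlations by 100000 permutations. Of 9 planned ratio tests 6 were made, since HSPE1 was not found. Per comparison, the 8 genes of smallest p were named, with 12 genes named whatever their values, the 2 genes of smallest p of each related list, and the 10 genes most like HSPH1. Identifiers matched RefSeq's table of the Taihu_goose_T2T_genome assembly for 17685 genes and not for 2151. The members and lists were chosen with earlier results of these data known. The code was tested on simulated counts. Of 100 genes changed 2-fold there, 27 to 37 were called, depending on the comparison. Of 100 changed 4-fold, 71 to 79 were called.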

Additional observations from a re-analysis of the deposited data

Results flagged for a closer look

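Of 84 sets of 4 libraries searched, 1 for each gene and diet, 7 held a library far from its 3 neighbours in FPKM, where chance flags about 1 in 20. HSP90AB1 stood at 20.9 FPKM in control 6, above the other controls at 9.64 to 11.5 FPKM. DNAJB6 stood at 6.52 FPKM in control 3, below the other controls at 12.8 to 13.6 FPKM. In lactulose 2, DNAJB6 stood at 14.3 FPKM, above 12.6 to 12.7 FPKM in the other lactulose libraries. HSPA4 stood at 34.4 FPKM in high protein 3, above 28.5 to 29.1 FPKM, and PTGES3 at 29.8 FPKM in high protein 4, above 26.3 to 26.7 FPKM. UNC45A stood at 11.99 FPKM in high protein 1, above 10.4 to 10.5 FPKM, and HSF1 at 10.8 FPKM in lactulose 3, below 11.8 to 11.9 FPKM. On scaled CPM 1 of the 7 still stood apart by the same measure, DNAJB6 in control 3, at 73.6 against 106 to 111 in the other controls. HSP90AB1 in control 6 was at 59.0 against 32.0 to 39.4, PTGES3 in high protein 4 at 164 against 124 to 137, UNC45A in high protein 1 at 41.9 against 32.7 to 38.6, and HSPA4 in high protein 3 at 132 against 122 to 130.2 scaled CPM, each highest of its diet. DNAJB6 in lactulose 2, at 108 against 105 to 112 scaled CPM, lay within the range of its diet. So did HSF1 in lactulose 3, at 26.1 against 24.8 to 29.1 scaled CPM. Only these 7 were checked by this measure on scaled CPM, so that 1 of 7 is not a count over all sets on that scale. Wide gaps were present in other sets too. Those that follow were picked after their values were seen, and the list is not complete. HSPA2 stood at 314 scaled CPM in high protein 5, against 162 to 170.2 in the other high protein libraries. In lactulose 6, HSPD1 stood at 153 scaled CPM, against 172 to 175 in the other lactulose libraries. STUB1 stood at 47.6 scaled CPM in lactulose 2, against 57.4 to 59.0.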

How the results depend on the processing

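The count of genes called stayed 0 of 28 in all 3 comparisons under each of the 25 alternatives run, edgeR, DESeq2 and limma included. Few of all genes were called either, with 0 or 1 in each edgeR and limma fit. DESeq2 called 9, 17 and 22 of 19836 for high protein against control, lactulose against high protein and lactulose against control. Counts at an unadjusted p under 0.05 moved. For lactulose against high protein (2 genes) the count was 1 with median-of-ratios scaling, without a filter, with lactulose 3 and 5 as 1 library, with W transcript status as a covariate and with limma on log2(FPKM + 1), 0 with limma on log2(FPKM + 0.1), 4 with only those diets, and 0 to 4 when each library was left out. For lactulose against control (1 gene) it was 0 with W transcript status, DESeq2 and limma on log2(FPKM + 0.1), 2 with limma on log2(FPKM + 1), and 0 to 2 without each library; for high protein against control (0 genes) it was 0 to 2, with 2 without control 6. The replicate block gave 0 for lactulose against control. The shares of all tested genes at this threshold moved as well. For lactulose against high protein the share was 10.4% with only those diets and 10.8% without control 3. It was 3.19% without lactulose 3, against 5.65% in the main fit. For high protein against control it was 5.56% without control 6, against 3.17%. Same-numbered libraries deviated together at r of −0.12 to 0.19. Pairs of different numbers were not set beside them, so whether the numbers pair the samples was not tested. No gene was called without the block, so that it could end no call. With the block, HSPH1 stood at 0.57 for high protein against control and HSP90AA1 at −0.77 for lactulose against high protein. Log2 FPKM and lactulose 3 and 5 as 1 library put 15 and 3 genes past the threshold for correlation with HSPH1. Leaving out each library, the log2 ratio of HSP90AA1 to HSP90AB1 ranged between −0.77 and −0.52 for lactulose against high protein and between −0.23 and 0.031 for lactulose against control, and that of HSPA2 to HSPA8 between −0.014 (without lactulose 2) and 0.52 for lactulose against high protein. HSPB1 for lactulose against control turned to −0.038 with the smooth muscle covariate. The cause of these moves was not tested. Medians of the 28 genes ranged between 0.05 and 0.17 for high protein against control, −0.20 (replicate block) and −0.01 (limma) for lactulose against high protein, and −0.10 and 0.07 for lactulose against control, the median turning positive without control 6 and with limma. With 4 libraries per diet, small differences such as these could not be told from the spread between libraries.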
